A study of Homo sapiens with 10 samples.

Results

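The regions described here were the 11561 regions annotated as distal intergenic among the 67387 regions of H3K27ac chromatin immunoprecipitation and sequencing (ChIP-seq) that carry an annotation, and among 169637 counted regions in all. They were taken by that annotation. How the authors chose the regions to annotate is not given in the sources used here, but the annotated regions had a median level of 7.80 CPM (counts scaled to 1000000 of a library total that was corrected by TMM) against 1.88 in the others tested, and each of the 11561 lay in a called peak of at least 1 library. All regions had the same width, and each was assigned to the gene with the nearest transcription start site (TSS), at a distance of 3008 to 99965 bp with a median of 23975 bp. Of the 11561 regions, 7112 (61.5%) lay upstream of the assigned start. They were assigned to 3590 nearest genes, of which 1229 had 1 region and 176 had 10 or more. Regions within 1000 bp of each other formed 6368 loci, of which 3151 held 1 region and 191 held 5 or more.

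The cells were H1975, an established lung adenocarcinoma line with a mutant EGFR gene, cultured as 3 groups of 3 replicates, which the labels call biological. DMSO control cells had 21 drug-free days followed by 3 days with DMSO. Osimertinib DTP cells, drug-tolerant persister cells that remain alive under a drug, had 24 days with osimertinib at 500 nM, an inhibitor of mutant EGFR. The osimertinib DTP + AZD5153 cells, called the AZD5153 group below, had osimertinib at 500 nM for 21 days and then AZD5153 at 150 nM for 3 days. The sample titles call this group a combo, but the labels do not say whether osimertinib was kept on during those 3 days. AZD5153 is a small-molecule inhibitor. All groups come from 1 cell line, and 1 pooled input library of chromatin without immunoprecipitation was shared by them.

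Enhancers are stretches of DNA that bind transcription factors and raise the transcription of a gene that may lie far away. Active enhancers and active promoters both carry H3K27ac, the acetylation of lysine 27 of histone H3. Enhancer marks differ more between cell types and cell states than promoter marks do, and factors such as AP-1 and the YAP and TAZ partners of the TEAD family bind mainly at distal sites in epithelial cancer cells. A nearest gene is an address and not a measured target, since an enhancer can skip its neighbour.

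The annotation was checked against RefSeq (GRCh38.p14). Of the 11561 regions, 1714 (14.8%) lay inside a RefSeq gene, 339 (2.93%) of them inside a protein-coding gene. A start window of 300 bases around a RefSeq TSS overlapped 207 regions (1.79%), and 170 of the 186 genes of those windows were long noncoding RNAs (lncRNAs). Thus a small part of the class sat at starts of noncoding transcripts, and no second enhancer mark was measured that could separate enhancers from other acetylated sites. The stretches below are parts of distal regions with a changed level for which sequence was at hand, at lncRNA starts. Not all such parts are shown, and the rest of each region was not searched for motifs. They are given 5′ to 3′ on the strand of the lncRNA. Capitals mark matches to TGANTCA, the core motif of AP-1, or GGAATG, the core motif of TEAD factors, searched on both strands. A stretch without capitals holds neither. The first pair had a higher level and the last pair a lower level in osimertinib DTP cells than in DMSO.
LOC105374843 (chr2:85998029-85998204, minus strand): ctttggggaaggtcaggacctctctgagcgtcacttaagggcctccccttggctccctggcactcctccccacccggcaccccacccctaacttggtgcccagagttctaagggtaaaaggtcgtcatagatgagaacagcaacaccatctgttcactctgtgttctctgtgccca
LOC105372853 (chr22:18056875-18057077, plus strand): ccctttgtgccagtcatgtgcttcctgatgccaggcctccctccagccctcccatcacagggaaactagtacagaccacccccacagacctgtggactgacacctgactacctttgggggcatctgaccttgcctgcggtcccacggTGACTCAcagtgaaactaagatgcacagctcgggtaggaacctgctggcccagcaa
LOC105373426 (chr2:10546916-10547141, minus strand): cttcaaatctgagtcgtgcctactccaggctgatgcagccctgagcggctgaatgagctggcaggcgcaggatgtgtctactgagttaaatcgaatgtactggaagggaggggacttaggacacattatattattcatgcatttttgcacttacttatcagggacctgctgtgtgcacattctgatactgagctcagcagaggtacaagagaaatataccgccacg
LOC124903385 (chr14:100689081-100689380, plus strand): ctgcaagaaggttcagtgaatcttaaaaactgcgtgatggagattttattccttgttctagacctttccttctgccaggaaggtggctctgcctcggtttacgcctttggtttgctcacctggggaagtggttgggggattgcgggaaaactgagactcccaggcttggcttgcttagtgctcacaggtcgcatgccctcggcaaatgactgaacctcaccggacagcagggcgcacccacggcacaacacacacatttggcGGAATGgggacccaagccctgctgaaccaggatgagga

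The region at LOC105374843, assigned to POLR1A, had 0.719, 0.102 and 0.398 CPM in the DMSO libraries, 4.17, 15.8 and 9.99 in osimertinib DTP cells, and 6.56, 13.5 and 16.1 in the AZD5153 group. All 6 treated libraries were above all DMSO libraries. The region at LOC105372853, whose printed stretch holds 1 AP-1 motif, was assigned to PEX26, a peroxisome membrane protein. It had 6.83, 5.22 and 6.07 CPM in DMSO, 17.5, 39.2 and 37.7 in osimertinib DTP cells, and 29.0, 42.9 and 33.0 in the AZD5153 group. At LOC105373426, assigned to ODC1-DT, the levels were 3.69, 14.6 and 8.76 CPM in DMSO, 0.853, 0.551 and 0.499 in osimertinib DTP cells, and 0.298, 0.692 and 1.15 in the AZD5153 group. The region at LOC124903385, whose printed stretch holds 1 TEAD motif, was assigned to LINC00523. It had 14, 17.2 and 17 CPM in DMSO, 2.46, 2.75 and 2.30 in osimertinib DTP cells, and 4.67, 3.92 and 5.94 in the AZD5153 group. The log2 fold changes of the 4 regions in osimertinib DTP cells against DMSO were 4.55 ± 0.77, 2.38 ± 0.53, −3.79 ± 0.71 and −2.68 ± 0.53 (SE, edgeR, Benjamini-Hochberg adjusted p = 0.00371, 0.0108, 0.00511 and 0.00660).

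Over the 112 RefSeq start windows whose start lay inside a distal region, 22 (19.6%) held the AP-1 motif, against 7.71% of all 35116 start windows of the same 300 bases. The TEAD motif was in 21 (18.8%) against 14%. TGTTTAC, a forkhead motif, was in 5.36% against 3.42%, TGTGGTT, a RUNX motif, in 7.14% against 4.27%, and CCGGAAG, an ETS motif, in 8.93% against 10.3%. The median GC content was 52.8% against 58.7%. These are shares of letters in windows and were not tested.

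Total counts ranged from 6263443 to 10463351 per H3K27ac library, and a distal region had a median of 46 to 82 counts in 8 of the libraries. Replicate 3 of the AZD5153 group stood apart, with a median of 17 counts, 323 distal regions without a read (1 to 52 in the others) and a Spearman correlation with its replicates over distal regions of 0.518 and 0.564, where replicates 1 and 2 had 0.882. This library and replicate 2 of osimertinib DTP had 52.9% and 50.8%, respectively, of their counts in promoter regions within 1 kb, against 29.3% to 34.8% in the others. Counts of regions and genes that include the AZD5153 group are therefore given with and without its replicate 3, and single values with all libraries unless stated. The input had a median of 12 counts over distal regions and 10 over all regions, and 4 distal regions exceeded 5 times that median. Of the lung and epithelial markers 8 of 8 had a promoter region, with 4.57 CPM at SFTPB to 70.0 at KRT8 in the mean of the 9 libraries. The median promoter had 17.6, and CDH1, KRT18, NAPSA and SFTPB lay below it. Of the blood markers, PTPRC, CD3E and SPI1 had no promoter region in the annotated table and CD14 had 5.03 CPM. PECAM1 and VWF of endothelium and DCN of fibroblasts had none, while CDH5, COL1A1, COL1A2 and PDGFRB had 17, 16.8, 7.37 and 17.2 CPM. The 3 fibroblast markers with a promoter region had lower means in DMSO. PDGFRB had a mean of 2.87 CPM in DMSO, 19.1 in osimertinib DTP cells and 29.6 in the AZD5153 group, COL1A1 7.43, 24.4 and 18.6, and COL1A2 1.78, 5.75 and 14.6. Their part in the results was not tested. Fewer cells with a mark and less of the mark per cell cannot be told apart in such bulk samples.

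The groups overlapped in the part of the H3K27ac counts that fell in distal intergenic regions. Their share of all counts was 11.1%, 13.3% and 11.9% in DMSO, 10.3%, 9.83% and 11.3% in osimertinib DTP cells, and 11.9%, 12.9% and 7.17% in the AZD5153 group. Replicate 3 of the last group lay below all other libraries. The mean was 10.5% ± 0.77 in osimertinib DTP cells and 12.1% ± 1.08 in DMSO (SD, n = 3), a difference of −1.61 percentage points (two-sided exact permutation p = 0.2, where 0.1 is the smallest 3 against 3 can give, adjusted p = 0.4 over 6 tests). Each osimertinib DTP library was below the DMSO library with the same replicate number (paired exact permutation p = 0.25, the smallest 3 pairs can give). The AZD5153 group had 10.6% ± 3.06, 0.137 points above osimertinib DTP (exact permutation p = 1) and 1.48 points below DMSO (difference −1.48, exact permutation p = 0.6), which became 1.88 and 0.261 points above them without replicate 3.

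A peak called by the authors in the same library overlapped 81.3%, 81.1% and 78.4% of the distal regions in DMSO, 75.6%, 78.1% and 77.9% in osimertinib DTP cells, and 76.9%, 77.9% and 48.8% in the AZD5153 group. Each osimertinib DTP library was below each DMSO library, with a mean of 77.2% ± 1.38 against 80.3% ± 1.63 (SD, n = 3, exact permutation p = 0.1, adjusted p = 0.3 over 6 tests), a design that cannot go below 0.1. The groups overlapped when a peak had to cover at least 0.5 of the region (74.4% to 77.5% in DMSO and 69.3% to 74.5% in osimertinib DTP cells) or had to be 4-fold enriched (65.1% to 74.9% and 61.0% to 71.9%). The peak list of replicate 3 of osimertinib DTP was deposited under the name of another cell line, and its labels were followed. Its enrichment over distal regions had a Spearman correlation of 0.710 with the counts of that library and at most 0.496 with those of any other. For the AZD5153 group the mean was 67.9% ± 16.5, and its differences of −9.34 points from osimertinib DTP and −12.4 from DMSO became 0.183 and −2.85 without replicate 3. Of the 11561 regions, 3084 (26.7%) lay in a peak of all 9 libraries. A further 1303 (11.3%) lay in a peak of all 3 osimertinib DTP libraries and of no DMSO library, and 1549 (13.4%) the other way round. Between the AZD5153 group and osimertinib DTP such complete switches were seen at 60 and 128 regions, and at 192 and 221 with replicates 1 and 2 of the AZD5153 group alone. Switches were not counted over all regions or in other classes, so they are not shown to be particular to distal regions.

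**Figure D1:**
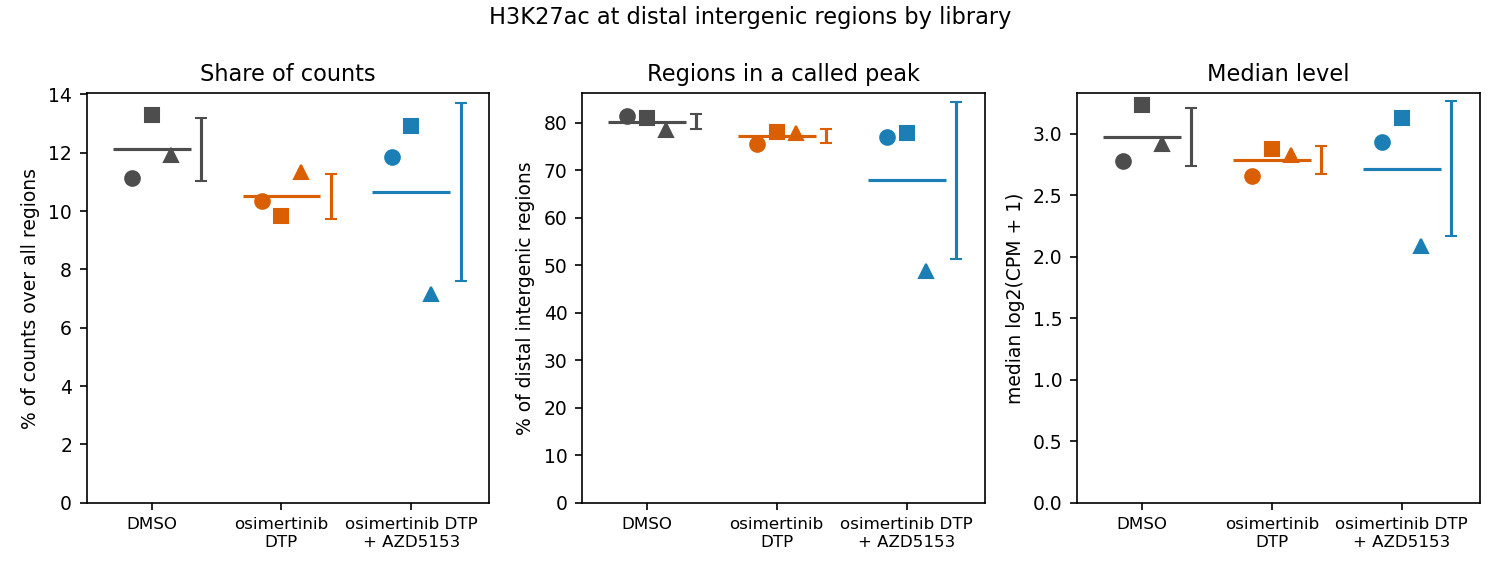
Share of counts in distal intergenic regions (left, % of the counts over all regions), share of the 11561 regions in a called peak of the library (middle, %) and their median level (right, log2(CPM + 1)) by group, with a circle for replicate 1, a square for replicate 2, a triangle for replicate 3, a line for the mean and a bar for the SD (n = 3). Replicate 3 of osimertinib DTP + AZD5153 lies lowest in each panel, at 7.17%, 48.8% and 2.09.

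A distal region carried less H3K27ac than a promoter, while a difference from intronic regions was not shown. The median level of distal regions, as log2(CPM + 1), was below that of promoter regions within 1 kb of a TSS in 9 of 9 libraries, by a mean of −0.75 (SD 0.60, two-sided exact sign-flip permutation p = 0.00391, the smallest 9 libraries can give, adjusted p = 0.00781 over 2 tests). The largest differences were those of replicate 3 of the AZD5153 group (−2.07) and of replicate 2 of osimertinib DTP, the libraries rich in promoter counts, and the smallest was −0.31. The median level of distal regions was below that of intron regions in 3 of 9 libraries (mean difference 0.04, SD 0.09, exact permutation p = 0.195, adjusted p = 0.195). The median over distal regions of the mean level was 6.68 CPM. The 5 regions with the highest mean level were a pair assigned to LINC00592 and 1 each to VXN, SLCO4A1, an organic anion transporter, and DNAH5, a dynein heavy chain of cilia. The LINC00592 region 16013 bp upstream had 71.0, 96.1 and 88.9 CPM in DMSO, 65.1, 119.5 and 79.9 in osimertinib DTP cells, and 65.2, 86.9 and 131 in the AZD5153 group, so the groups overlapped. In no comparison did any of these 5 pass the threshold (edgeR, adjusted p = 0.852 to 0.969 for osimertinib DTP against DMSO).

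Which distal regions were high differed between DMSO and the treated cells. The Spearman correlation across distal regions was 0.851 to 0.931 between DMSO libraries and 0.793 to 0.828 between osimertinib DTP libraries, but 0.257 to 0.465 (median 0.295) between a DMSO and an osimertinib DTP library. For the latter pairs, the median was 0.269 across intron regions and 0.717 across promoter regions within 1 kb. Between libraries of osimertinib DTP cells and of the AZD5153 group it was 0.506 to 0.838 across distal regions. These correlations are across regions, which are not replicates, and libraries share the region set and differ in depth. Each distal region lay in a peak of at least 1 library, and regions with a peak in only 1 group can lower the correlation between groups. Across all counted regions, a DMSO and an osimertinib DTP library had 0.537 to 0.709.

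The first comparison asked which distal regions gained or lost H3K27ac in osimertinib DTP cells. In the edgeR fit over all regions, 1094 distal regions were higher and 1485 lower than in DMSO (9.46% and 12.8%), where 5.58% and 5.13% of the 157919 regions tested were called higher and lower. The higher regions lay in 719 loci of 588 nearest genes and the lower ones in 1019 loci of 764. Every call had a log2 change of at least 1.62 in size, and the median size was 2.80 for rises and 2.59 for falls. The CPM of both groups did not overlap at 1093 of the 1094 higher and at all 1485 lower regions, and calls and separation are not independent, since 56.2% of all distal regions were separated, as were, of all tested regions, 20.2% with higher and 18.9% with lower values. The calls were sensitive to single libraries. Without replicate 1, 2 or 3 of DMSO there were 588, 125 and 245 rises and 958, 139 and 445 falls, and without replicate 1, 2 or 3 of osimertinib DTP 802, 542 and 548 rises and 588, 410 and 349 falls. Without replicate 3 of the AZD5153 group, which only shares the estimate of the spread, there were 2134 and 2963. Falls made up most of the calls with the scaling over all regions (42.4% higher), but not with TMM on the distal regions alone (1193 higher and 918 lower, 56.5% higher), which moved the median over all regions from 0.15 to 0.35 (log2), nor without replicate 1, 2 or 3 of osimertinib DTP (57.7%, 56.9% and 61.1% higher). Relative to the median of all regions, the median distal region was lower by 0.29 with the first scaling (−0.15 against 0.15).

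The shares called in intron and promoter regions are given beside those of distal regions. Of 21266 intron regions 10.1% were higher and 9.82% lower, and of 24296 promoter regions within 1 kb 2.78% and 1.85%. Over all 67387 annotated regions, distal ones included, the shares were 6.98% and 7.22%. Among regions of like mean level over all libraries the shares were as follows. Most libraries were of treated cells, so a region high only in DMSO has a lower mean level than one high in both treated groups. The level groups are thus not independent of the direction of a call. Up to 4.29 CPM, the lowest 25% of the distal levels, 11.1% of distal regions were higher and 27.5% lower, against 11.7% and 19.8% of intron and 6.02% and 9.15% of promoter regions. Above 11.7 CPM, the highest 25%, the shares were 5.67% and 3.77% for distal, 7.35% and 2.88% for intron and 1.61% and 0.342% for promoter regions. No test of the difference between classes was run.

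The share called was larger in each bin farther from the TSS. Of the 2371 regions at under 10 kb 8.10% were higher and 11.1% lower, of the 3617 at 10 to under 25 kb 8.63% and 12.1%, of the 3068 at 25 to under 50 kb 9.26% and 14.2%, and of the 2505 at 50 kb and over 12.2% and 14%. The share called in either direction was thus 19.1%, 20.7%, 23.4% and 26.2% in order of distance. The median level was 6.73, 6.83, 6.65 and 6.44 CPM in these bins. Upstream of the TSS 22.2% were called and downstream 22.5%. In the AZD5153 group against DMSO the bins had 27.8%, 29.1%, 32.7% and 36.7% (44.3%, 45.7%, 49.9% and 52.8% without its replicate 3), and both comparisons share the DMSO libraries. These shares were not tested, since regions of 1 locus are not independent. By kind of nearest gene, 9.10% of the 8492 regions assigned to protein-coding genes were higher and 11.9% lower, against 10.4% and 15.5% of the 2410 assigned to lncRNAs and 9.65% and 18.3% of the 404 assigned to microRNAs.

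**Figure D2:**
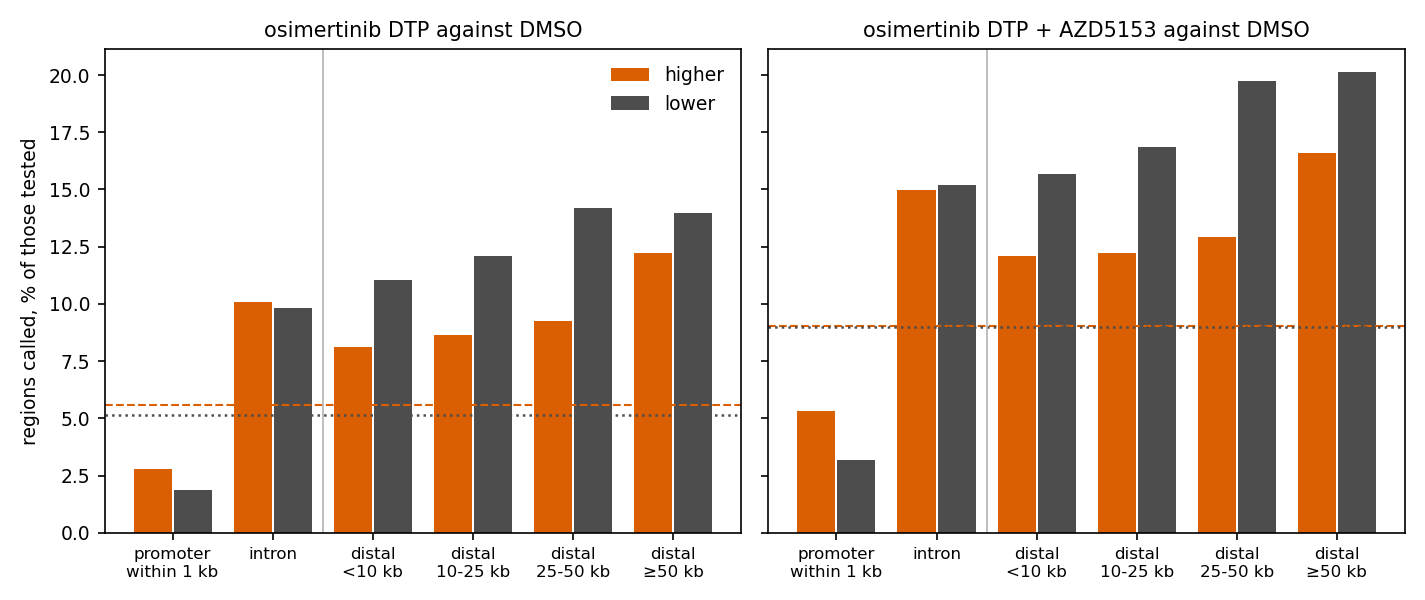
Distal intergenic regions called higher (orange) or lower (grey) than in DMSO, in % of the regions tested, by distance to the assigned TSS, beside promoter regions within 1 kb and intron regions, for osimertinib DTP (left) and osimertinib DTP + AZD5153 (right). The dashed and dotted lines are the shares called higher (5.58% and 9.05%) and lower (5.13% and 9.01%) over all tested regions. On the left, the bars for higher regions rise from 8.10% at under 10 kb to 12.2% at 50 kb and over. Those for lower regions rise from 11.1% at under 10 kb to 14.2% at 25 to under 50 kb, with 14% at 50 kb and over.

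The rises named here went from almost no reads to a clear level. The region 63870 bp upstream of PDE1A (chromosome 2, 182587062 to 182587563), a calmodulin-dependent phosphodiesterase of cyclic nucleotides, had 0.0899, 0.307 and 0.299 CPM in DMSO, 11.2, 17.8 and 29.9 in osimertinib DTP cells, and 21.3, 40.9 and 1.53 in the AZD5153 group. Its level was high in all osimertinib DTP libraries and in 2 of the 3 libraries of the last group. The log2 fold change in osimertinib DTP cells was 6.34 ± 1.03 (SE, edgeR, adjusted p = 0.00357). The region 60697 bp downstream of GDF6 (chromosome 8, 96099518 to 96100019), a ligand of the bone morphogenetic protein family, had 0.0899 to 0.205 CPM in DMSO and 6.07 to 10.5 in osimertinib DTP cells (5.96 ± 0.85, adjusted p = 0.00273). Near LINC01450, a lncRNA (chromosome 7, 40918070 to 40918571), the level was 0 to 0.540 CPM in DMSO and 12 to 24.5 in osimertinib DTP cells (5.78 ± 0.80, adjusted p = 0.00273). The regions of LINC02303 (chromosome 14, 45633240 to 45633741), of CD101, an immune surface glycoprotein (chromosome 1, 116997277 to 116997778), and of POLR1A, the catalytic subunit of RNA polymerase I (chromosome 2, 85998334 to 85998835), had log2 fold changes of 5.75 ± 0.93, 5.69 ± 0.88 and 5.67 ± 0.83 (adjusted p = 0.00354, 0.00304 and 0.00273). In the AZD5153 group, PDE1A, LINC02303 and CD101 had 1.53, 1.72 and 2.30 CPM in replicate 3 against 13 to 40.9 in replicates 1 and 2, whereas LINC01450 and POLR1A had 12.1 and 37.2 CPM in that replicate.

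The falls named here, like the rises, were chosen for a large change, and they went from a clear level to almost no reads. At the region 53747 bp downstream of MIR146A (chromosome 5, 160539099 to 160539600), a microRNA that NF-kappaB induces and that dampens inflammatory signalling, the DMSO libraries had 6.47, 17.2 and 8.36 CPM, osimertinib DTP had 0.0948, 0 and 0, and the AZD5153 group had 0.199, 0.346 and 0.192. There were 324 counts in DMSO and 1 in osimertinib DTP cells, a ratio of 291 with an exact 95% counting interval of 51.9 to 11547. Its fitted log2 fold change of −7.77 (adjusted p = 0.00273) became −9.56 without replicate 1 of osimertinib DTP, the library with that count. The region 9291 bp upstream of TCERG1L-AS1, an antisense lncRNA (chromosome 10, 131085426 to 131085927), had 19.6, 53.0 and 39.4 CPM in DMSO, 0.664, 0.138 and 0.599 in osimertinib DTP cells, and 0, 0.231 and 1.92 in the AZD5153 group (−6.23 ± 0.99 in osimertinib DTP cells against DMSO, adjusted p = 0.00336). Both treated groups were below DMSO in every library. At LINC01152 (chromosome 17, 71995741 to 71996242) 223 counts in DMSO stood against 3 in osimertinib DTP cells, a ratio of 66.9 (22.6 to 327). The regions of LOC100507065 (chromosome 12, 65671154 to 65671655), LINC01591 (chromosome 8, 135190131 to 135190632) and ZNF92, a zinc finger protein (chromosome 7, 65406411 to 65406912), had −5.54 ± 0.82, −5.52 ± 0.77 and −5.51 ± 0.77 (SE, edgeR, adjusted p = 0.00282, 0.00273 and 0.00273). These 6 falls and the 6 rises above kept an adjusted p of 0.0433 or less in all 9 fits with a library removed, and the highest of these was found without replicate 2 of DMSO. The fitted values of LINC01450, LINC02303, POLR1A and LINC01152 moved by more than 1.5-fold in such a fit, to between 5.29 and 6.39, 5.43 and 6.40, 5.02 and 6.17, and −6.67 and −5.46. The libraries behind the largest shifts were replicate 1 of DMSO, replicate 2 of DMSO, replicate 2 of osimertinib DTP and replicate 3 of osimertinib DTP.

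Counts were also summed over the distal regions of each nearest gene. Of 3590 genes, 483 were higher and 619 lower in osimertinib DTP cells than in DMSO, which is 13.5% and 17.2% of those tested. The rises were 308 and 267 without replicate 2 or 3 of DMSO and 766 without replicate 3 of the AZD5153 group, and the falls were 293 without replicate 2 of DMSO, 390, 380 and 320 without replicate 1, 2 or 3 of osimertinib DTP, and 964 without replicate 3 of the AZD5153 group. Of the 600 genes with at least 2 called regions, 568 had all of them called in 1 direction and 32 had calls both ways. Most promoters of these genes were not called. Of the 483 higher genes 272 had a promoter region within 1 kb, which was called higher at 28, lower at 1 and not called at 243. Of the 619 lower genes 342 had one, called lower at 14, higher at 3 and not called at 325. Over all 2243 genes with both kinds of region, 67 promoters (2.99%) were higher and 35 (1.56%) lower.

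Several genes had many distal regions that rose. ZRANB1, a deubiquitinase, had 15 of 16 regions higher, with a summed level of 34.5, 35.9 and 27.5 CPM in DMSO, 155, 212 and 176 in osimertinib DTP cells, and 191, 202 and 105 in the AZD5153 group. Every treated library was above every DMSO library (log2 fold change 2.47 ± 0.39 in osimertinib DTP cells against DMSO, SE, edgeR, adjusted p = 6.04e-04). MIR4668 had 14 of 24 regions higher (1.41 ± 0.40, adjusted p = 0.0131, lost in 2 of 9 fits that left out 1 library, with 0.0740 without replicate 3 of DMSO). MRPL33, a protein of the mitochondrial ribosome, had 10 of 15 higher (1.69 ± 0.36, adjusted p = 0.00250), ANKRD1 8 of 9 and BTNL10 8 of 19, and LINC01450 had 8 of 14 although its sum was not called (1.25 ± 0.50, adjusted p = 0.0689). ZDHHC17, a palmitoyltransferase, had 7 of 7 higher, from 4.86, 5.12 and 3.48 CPM in DMSO to 68.2, 95.6 and 106 in osimertinib DTP cells (4.32 ± 0.56, adjusted p = 3.45e-04). Its promoter log2 fold change was 1.17 (adjusted p = 0.192). The genes with the smallest p among rises were MIR548AJ1 with 1 region (5.39 ± 0.63), MC5R, a melanocortin receptor, with 2 of 2 (4.47 ± 0.56), ZDHHC17, BTBD16 with 3 of 3 (4.26 ± 0.56) and GLYAT, which conjugates glycine to acyl groups, with 1 (4.70 ± 0.63).

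Other genes had many regions that fell. LINC00656 had 12 of 16 regions lower, with sums of 222, 306 and 303 CPM in DMSO, 82.6, 76.8 and 66.3 in osimertinib DTP cells, and 151, 106 and 177 in the AZD5153 group. The last group lay between the other 2 without overlap (−1.88 ± 0.36 in osimertinib DTP cells against DMSO, SE, edgeR, adjusted p = 0.00147). IER5, an immediate early gene, had 10 of 15 lower (−1.83 ± 0.39, adjusted p = 0.00258) with a promoter log2 fold change of −0.06 (adjusted p = 0.967). SERP2 had 10 of 12 lower (−2.71 ± 0.54, adjusted p = 0.00191), and LINC01910 9 of 9 (−2.22 ± 0.48, adjusted p = 0.00301). ARID3B, a DNA-binding protein with an AT-rich interaction domain, had 9 of 10 lower (−2.72 ± 0.50, adjusted p = 0.00116), and its promoter was called too (−1.71, adjusted p = 0.0494). P3H2, which hydroxylates collagen prolines, had 10 of 27 lower, but its sum was not called (−1.32 ± 0.50, adjusted p = 0.0554). The smallest p among falls belonged to TWF1, an actin-binding protein (−4.87 ± 0.63), MIR146A (−5.17 ± 0.66), ASPRV1, a protease of the epidermis (−4.10 ± 0.54), LOC105373352 (−3.96 ± 0.54) and CTNNBL1, a spliceosome-associated protein (−4.19 ± 0.57), each with all its 1 to 4 regions lower and adjusted p = 3.45e-04. At CTNNBL1 the promoter log2 fold change was 0.00227 (adjusted p = 0.999). Apart from MIR4668, each gene sum called in these paragraphs was called in all 9 fits that left out 1 library, except BTNL10, which is described with the AZD5153 comparison.

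**Figure D3:**
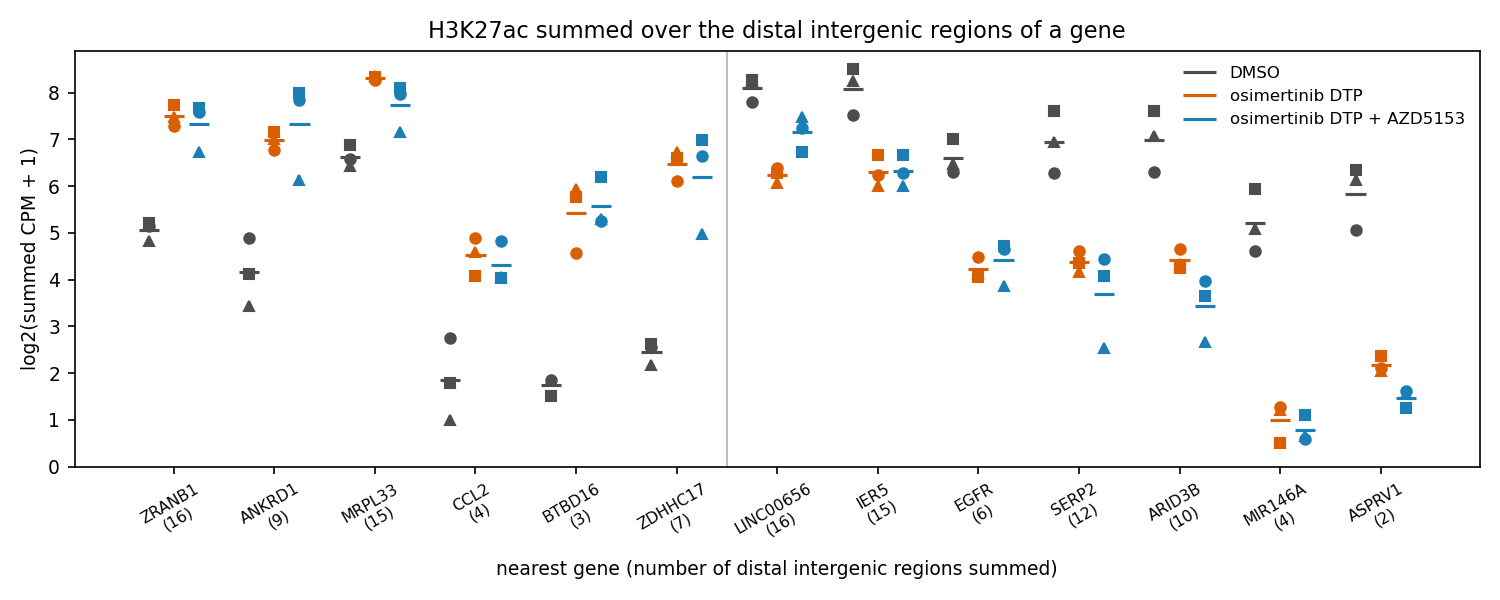
H3K27ac as log2(summed CPM + 1) over the distal intergenic regions of 13 nearest genes, whose number of regions is in parentheses, in DMSO (grey), osimertinib DTP (orange) and osimertinib DTP + AZD5153 (blue), with a circle, square and triangle for replicates 1, 2 and 3 and a line for the mean. The 6 genes left of the vertical line are higher and the 7 to its right lower in every osimertinib DTP library than in every DMSO library.

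Genes with many distal regions did not all change. LINC01714 had 30 regions, of which 5 were lower (sum −0.91, adjusted p = 0.0639, and 0.0370 with the replicate number as a block), and SUMO1P1 had 28, of which 5 were lower (−0.57, adjusted p = 0.328). LINC02639 had 22 regions with 1 higher (0.54, adjusted p = 0.266), and NABP1, a single-strand DNA-binding protein, 22 with 5 higher (0.73, adjusted p = 0.231). CCBE1, a secreted factor of lymphatic growth, had 21 regions with 4 lower (−1.36, adjusted p = 0.0322, called in 4 of 9 fits that left out 1 library and 0.197 without replicate 2 of DMSO).

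Receptor tyrosine kinases were represented by 25 distal regions of 6 of the 21 genes listed, of which 0 were higher and 6 lower (24% called, median log2 fold change −0.18, where 22.3% of all distal and 10.7% of all tested regions were called and the median over all tested regions was 0.15). Of the 6 falls, 5 belonged to EGFR, the receptor that osimertinib inhibits, and 1 to EPHA2. The 5 EGFR regions lay 22197 to 48878 bp upstream of the assigned start (chromosome 7, 54969638 to 54996820). The one 32822 bp upstream had the highest level of them, with 32.2, 49.6 and 33.3 CPM in DMSO, 8.25, 7.02 and 5.59 in osimertinib DTP cells, and 5.86, 8.19 and 2.30 in the AZD5153 group (−2.46 ± 0.57 in osimertinib DTP cells against DMSO, adjusted p = 0.0131). All treated libraries were below all DMSO libraries at each of the 5. Summed over its 6 regions EGFR had 77.8, 128 and 87.2 CPM in DMSO, 21.2, 15.7 and 16.5 in osimertinib DTP cells, and 24.1, 25.4 and 13.6 in the AZD5153 group (−2.45 ± 0.46, SE, edgeR, adjusted p = 0.00121). This was called in 9 of 9 fits that left out 1 library. The EGFR promoter had a log2 fold change of 0.28 (adjusted p = 0.855). The remaining region lay at chromosome 7, 55211979 to 55212480. It was assigned 19168 bp downstream of a start that, by the coordinates, is not the start assigned to the other 5 regions. This region had 1.62, 0.922 and 0.995 CPM in DMSO, 0.853, 0.413 and 1.80 in osimertinib DTP cells, and 6.95, 4.38 and 6.90 in the AZD5153 group. It was the only EGFR distal region that was high in the last group, above all other libraries (2.35 against DMSO, adjusted p = 0.0170, and 2.53 against osimertinib DTP, adjusted p = 0.948 with edgeR, while DESeq2 called it with 2.69, adjusted p = 0.0448).

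YAP and TAZ target genes had 71 distal regions in 14 of 22 genes listed, of which 17 were higher and 9 lower (36.6% called, against 22.3% of all distal regions, median log2 fold change 1.13). ANKRD1, an ankyrin repeat protein that YAP and TAZ induce, held 8 of the rises. Its 9 regions lay 8777 to 48287 bp upstream (chromosome 10, 90930053 to 90970064) and had together 28.8, 16.5 and 9.85 CPM in DMSO, 108, 141 and 128 in osimertinib DTP cells, and 229, 252 and 69.4 in the AZD5153 group. All treated libraries were above all DMSO libraries (2.77 ± 0.52 in osimertinib DTP cells against DMSO, SE, edgeR, adjusted p = 0.00134, called in 9 of 9 fits that left out 1 library). The promoter rose as well (3.39, adjusted p = 0.00416). CCN1, a secreted matrix protein, had 3 of 11 regions higher with a sum that was not called (0.83, adjusted p = 0.207), and CCDC80 had 2 of 11 (1.61, adjusted p = 0.0223, called in 5 of 9 such fits, with 0.103 without replicate 3 of DMSO, and lost with another scaling at 0.0554). PTPN14, a phosphatase that binds YAP, had 3 of 4 lower, with sums of 32.2, 32.6 and 25 CPM in DMSO and 7.30, 4.41 and 7.09 in osimertinib DTP cells (−2.25 ± 0.55, adjusted p = 0.00575). The list therefore held members in both directions.

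**Figure D4:**
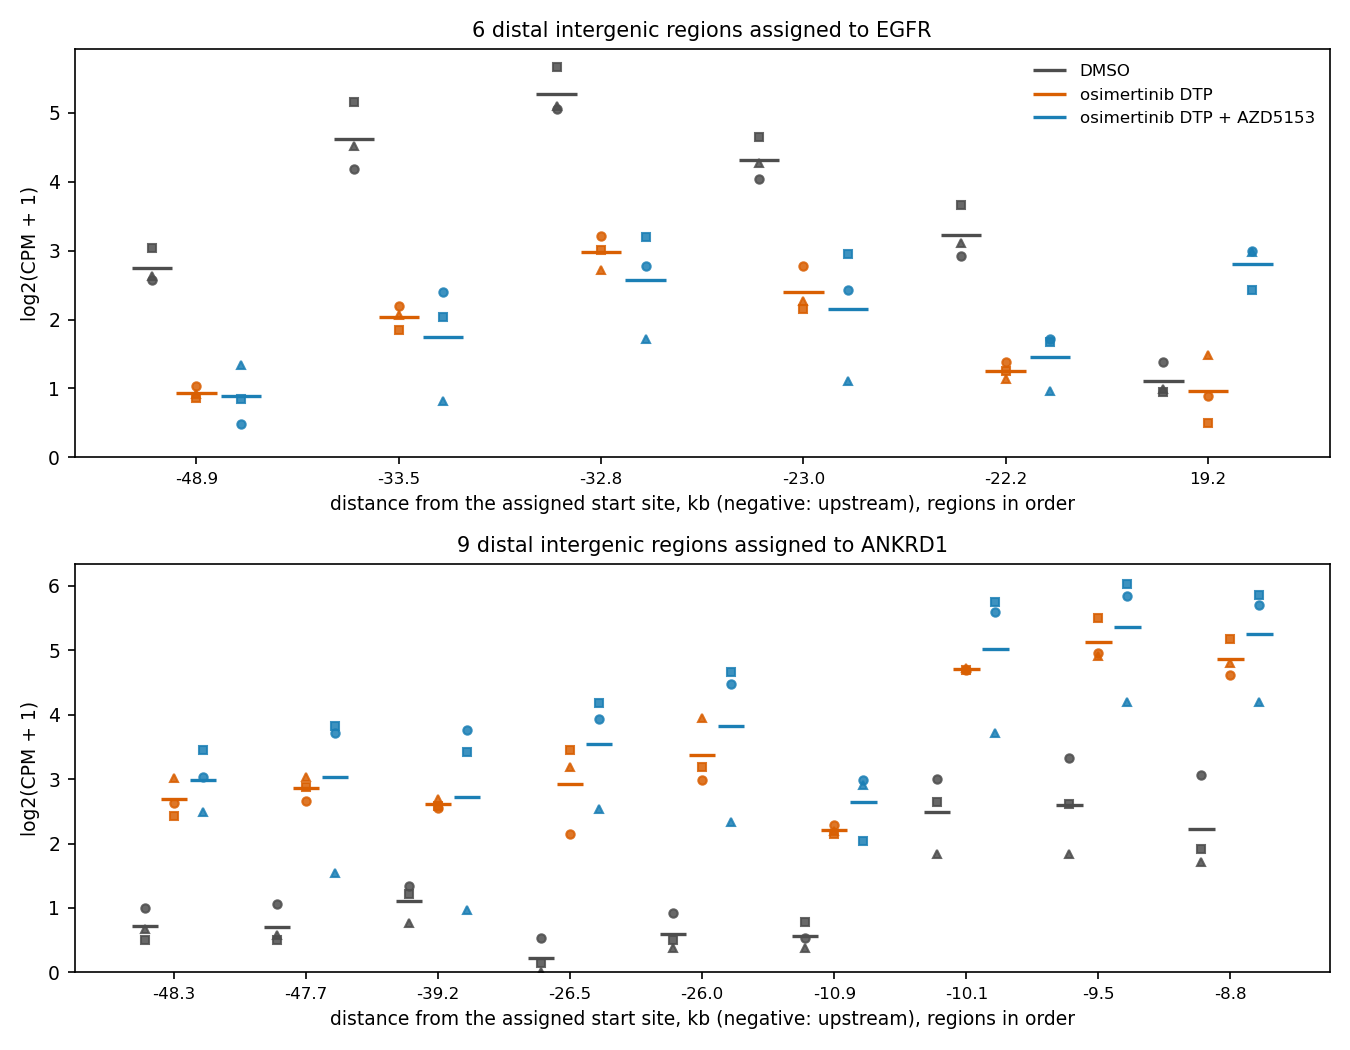
H3K27ac as log2(CPM + 1) at the 6 distal intergenic regions of EGFR (top) and the 9 of ANKRD1 (bottom), in order of distance from the assigned start, in DMSO (grey), osimertinib DTP (orange) and osimertinib DTP + AZD5153 (blue), with a circle, square and triangle for replicates 1, 2 and 3 and a line for the mean. At 5 EGFR regions both treated groups lie below DMSO, at the one 19168 bp downstream only osimertinib DTP + AZD5153 is high, and at ANKRD1 both treated groups lie above DMSO except replicate 3 of osimertinib DTP + AZD5153 at the region 39205 bp upstream. The EGFR region 19168 bp downstream was assigned to a different start than the other 5, so the EGFR distances are not on 1 scale.

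Among the NF-kappaB and inflammatory genes, 11 of 18 had 46 distal regions, of which 4 were higher and 5 lower (19.6% called, near the 22.3% of all distal regions, median −0.03). The 4 rises were the 4 regions of CCL2, a chemokine that attracts monocytes, and 4 of the 5 falls were the 4 regions of MIR146A. CCL2 had summed levels of 5.75, 2.46 and 0.995 CPM in DMSO, 28.8, 15.8 and 23.2 in osimertinib DTP cells, and 27.5, 15.5 and 15.7 in the AZD5153 group (2.87 ± 0.62 in osimertinib DTP cells against DMSO, SE, edgeR, adjusted p = 0.00280, and 3.69 without replicate 1 of DMSO). MIR146A had 23.6, 60.4 and 32.6 CPM in DMSO, 1.42, 0.413 and 1.30 in osimertinib DTP cells, and 0.497, 1.15 and 0.575 in the AZD5153 group. Both genes were separated between DMSO and all treated libraries, in opposite directions. CCL20, another chemokine, held the remaining fall (sum −1.59, adjusted p = 0.0389, called in 2 of 9 fits that left out 1 library and 0.182 without replicate 2 of DMSO), and CXCL8, the chemokine interleukin 8, had 0 of 8 regions called (sum adjusted p = 0.124).

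For the lists that follow, 22.3% of all distal and 10.7% of all tested regions were called in either direction. The MAPK pathway output list had 21 distal regions in 4 of 10 genes, 0 higher and 4 lower (19% called, median −1.05). PHLDA1 held 3 of the falls (sum −1.52, adjusted p = 0.0267, called in 4 of 9 fits that left out 1 library and 0.148 without replicate 2 of DMSO) and EPHA2 the other. Lung lineage genes had 28 regions in 5 of 16 genes, 3 higher and 2 lower (17.9%, median −0.25). The falls were both regions of CEBPA, a transcription factor of the lung epithelium, with sums of 16.1, 21.2 and 20.9 CPM in DMSO, 4.64, 5.23 and 3.30 in osimertinib DTP cells, and 2.09, 4.15 and 4.22 in the AZD5153 group (−2.14 ± 0.52, adjusted p = 0.00575). Of the rises, 2 were among 16 regions of ELF3, an epithelial transcription factor (sum 0.28, adjusted p = 0.698), and 1 at HOPX (−0.12, adjusted p = 0.898). The 12 AP-1 factors listed had 16 regions in 5 genes, 0 higher and 1 lower (6.25%, median 0.10). That fall was at FOSL1, a Fos family subunit, whose sum fell from 13, 12.3 and 12.5 CPM in DMSO to 2.94, 2.07 and 2.80 in osimertinib DTP cells (−2.27 ± 0.56, adjusted p = 0.00594), and FOSL2 had 0 of 8 called. Epithelial-mesenchymal transition genes had 38 regions in 8 of 17 genes with 0 higher and 1 lower, at SNAI1 (sum −0.55, adjusted p = 0.388), and SMAD7 had 0 of 10 called. Cell cycle genes had 9 regions in 3 of 16 genes with 3 higher and 0 lower. These were at CCNE1, cyclin E1, with 2 of 4 (sum 1.68, adjusted p = 0.0180, called in 5 of 9 fits that left out 1 library and 0.0843 without replicate 2 of osimertinib DTP), and at the single region of E2F3 (2.28, adjusted p = 0.0136, called in 6 of 9 and 0.0631 without replicate 2 of DMSO).

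The AZD5153 group was compared with osimertinib DTP cells next. An effect of AZD5153 and one of stopping osimertinib, if it was stopped, cannot be told apart in this comparison. No distal region passed the threshold in edgeR with all libraries (0 of 11561 in each direction, 0% of all tested regions), while 747 distal regions had an unadjusted p under 0.05. DESeq2 called 6 distal regions higher and 13 lower, limma with library quality weights 341 and 190, and edgeR without replicate 3 of the AZD5153 group 4 and 17. DESeq2 and the last fit had 12 regions in common, 12 of the 19 called by the first and 12 of the 21 called by the second. The median log2 fold change of distal regions was 0.07 and that of all regions 0.06. Among the gene sums 0 of 3590 were called (0%), with 212 at an unadjusted p under 0.05. DESeq2 called MMP12 higher and ZNF433-AS1 lower.

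BTNL10, a butyrophilin family gene, had 19 distal regions, of which 8 were called against DMSO and 0 between the treated groups. All 19 lay 15623 to 43795 bp upstream (chromosome 1, 228527928 to 228556601). Their summed level was 44.8, 136 and 85.3 CPM in DMSO, 222, 404 and 401 in osimertinib DTP cells, and 43.4, 119 and 27.4 in the AZD5153 group. Each osimertinib DTP library was thus above all others, and the other groups overlapped. Against DMSO, 8 of the 19 regions were called higher in osimertinib DTP cells (sum 1.95 ± 0.53, SE, edgeR, adjusted p = 0.0111, called in 7 of 9 fits that left out 1 library and 0.0586 without replicate 1 of DMSO). In the AZD5153 group against osimertinib DTP the sum had −2.44 ± 0.54, which did not pass the threshold (adjusted p = 0.365) and passed it in 1 of the 9 fits, without replicate 2 of the AZD5153 group (−3.28, adjusted p = 0.00531). Of the 13 falls that DESeq2 called, 9 were BTNL10 regions, as were 10 of the 17 called by edgeR without replicate 3. The region 19020 bp upstream (chromosome 1, 228531325 to 228531826) had 4.23, 8.09 and 5.87 CPM in DMSO, 12.1, 18 and 26.3 in osimertinib DTP cells, and 0.993, 1.73 and 0.383 in the AZD5153 group. Here the last group was below both others (−4.12 ± 0.66 against osimertinib DTP, adjusted p = 0.289, and −2.48 against DMSO, adjusted p = 0.0131).

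**Figure D5:**
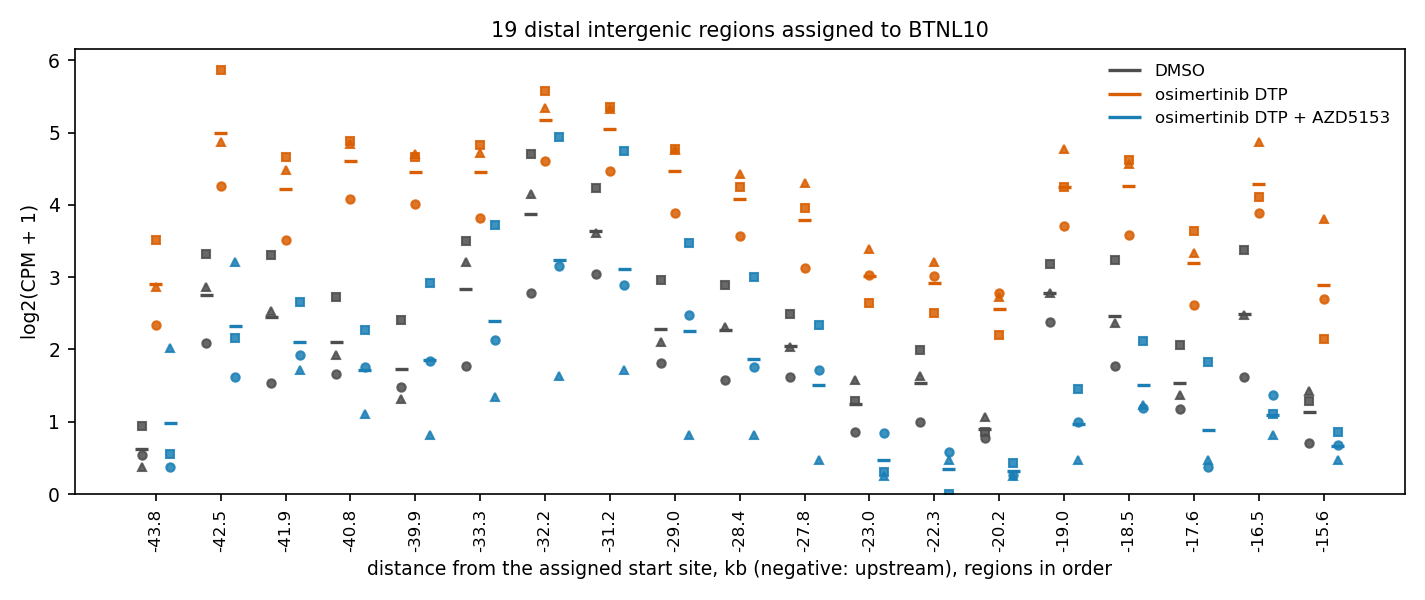
H3K27ac as log2(CPM + 1) at the 19 distal intergenic regions of BTNL10, in order of distance from the assigned start, in DMSO (grey), osimertinib DTP (orange) and osimertinib DTP + AZD5153 (blue), with a circle, square and triangle for replicates 1, 2 and 3 and a line for the mean. The mean of osimertinib DTP lies highest at each of the 19 regions.

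The other regions with the smallest p in this comparison are given as values, since none passed the threshold with edgeR. The region 21891 bp upstream of GTF2I, the transcription factor TFII-I (chromosome 7, 74627839 to 74628340), had 2.07, 1.95 and 3.98 CPM in DMSO, 1.99, 1.93 and 2.40 in osimertinib DTP cells, and 8.84, 15.8 and 10.5 in the AZD5153 group (2.47 ± 0.57, adjusted p = 0.729). Near MMP12, macrophage elastase (chromosome 11, 102911532 to 102912033), the values were 0.809, 1.02 and 0.597, then 0.379, 0.826 and 1.10, then 4.07, 7.15 and 4.79 CPM (2.78 ± 0.64, adjusted p = 0.729). Near LINC00494 (chromosome 20, 48431789 to 48432290) the AZD5153 group had 4.96 to 7.65 CPM and osimertinib DTP 0.826 to 1.23 (2.56 ± 0.59, adjusted p = 0.729). All 3 regions were higher in each library of the AZD5153 group than in any other. The region of ATP11B, a phospholipid flippase (chromosome 3, 182753177 to 182753678), had 9.98 to 11.8 CPM in DMSO, 2.56 to 5.39 in osimertinib DTP cells and 0.192 to 0.577 in the AZD5153 group (−3.21 ± 0.67, adjusted p = 0.508). A region 38256 bp upstream of TCERG1L-AS1 (chromosome 10, 131056461 to 131056962) had 7.37 to 18.1, 2.75 to 6.69 and 0.383 to 0.577 CPM in the 3 groups (−3.28 ± 0.67, adjusted p = 0.508). At both, the 3 groups followed each other downwards without overlap. In DESeq2, GTF2I, MMP12, LINC00494, ATP11B and this TCERG1L-AS1 region were among the calls. The regions named here, like the single BTNL10 region above, were chosen by their small p in this comparison. Separation of its groups at them is therefore no added evidence. Of all distal regions, 12.1% were separated between the AZD5153 group and osimertinib DTP, and the share over all tested regions was not counted.

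The third comparison set the AZD5153 group against DMSO and shares its DMSO libraries with the first. Of the distal regions 1541 were higher and 2092 lower (13.3% and 18.1%). Of all tested regions 9.05% and 9.01% were, and of all annotated ones 10.7% and 11.1%. In either direction, 30.2% of intron and 8.51% of promoter regions within 1 kb were called against 31.4% of distal ones. Without replicate 3 of the AZD5153 group the distal counts were 2761 and 2795. Without replicate 1, 2 or 3 of DMSO they were 994, 587 and 599 rises and 1676, 921 and 1203 falls. With TMM on distal regions alone 51.8% of the calls were higher, against 42.4% with the scaling over all regions, where the median over all regions moved from 0.23 to 0.59 (log2). Of the 1541 higher regions 1263 did not overlap between the groups, and of the 2092 lower ones 2089, where 47.8% of all distal regions were separated and, of all tested regions, 14.4% with higher and 19% with lower values. Over gene sums 637 of 3590 were higher and 717 lower (17.7% and 20%). Without replicate 3 of the AZD5153 group these were 947 and 798, without replicate 2 of DMSO 413 and 451, and without replicate 3 of DMSO 352 and 559.

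The rises named here were chosen with at least 50 counts in every replicate and no overlap of the groups. They included TYRP1, an enzyme of melanin synthesis, at a region 5100 bp upstream (chromosome 9, 12679838 to 12680339). It had 0.0899, 0.102 and 0.199 CPM in DMSO, 1.90, 4.68 and 4.09 in osimertinib DTP cells, and 6.36, 6.58 and 12.5 in the AZD5153 group, so that each group lay above the one before (5.88 ± 0.77 against DMSO, SE, edgeR, adjusted p = 0.00114). POLR1A and LINC01450, described above, had 5.91 ± 0.84 and 5.65 ± 0.80 (adjusted p = 0.00114 for both). MIR548AJ1 (chromosome 6, 132084326 to 132084827) had 5.42 ± 0.66, HS6ST1, a heparan sulfate sulfotransferase (chromosome 2, 128362592 to 128363093), 5.34 ± 0.82, and BTBD16 (chromosome 10, 122258978 to 122259479) 5.15 ± 0.78 (adjusted p = 0.00114, 0.00136 and 0.00132). The fitted value of HS6ST1, with 5 counts in DMSO, moved to 6.75 without replicate 1 of DMSO, and those of LINC01450 and BTBD16 to 6.27 and 5.76.

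The falls named against DMSO were again chosen for a large change and reached 0 reads in single libraries. Over all called falls the median size was 2.72 (log2). TWF1 (chromosome 12, 43815560 to 43816061) had 5.49, 10.0 and 7.37 CPM in DMSO, 0.284, 0.138 and 0.3 in osimertinib DTP cells, and 0.0993, 0.115 and 0 in the AZD5153 group. With 233 counts against 2, its ratio was 90.2 (exact 95% counting interval 24.7 to 749). ATP10B, a lysosomal phospholipid transporter (chromosome 5, 160547920 to 160548421), had 215 counts against 2, a ratio of 83.2 (22.8 to 692). Its region lay next to those of MIR146A, whose region at 160539905 to 160540406 had −6.20 ± 0.93 (SE, edgeR, adjusted p = 0.00127). SLC25A13, the mitochondrial aspartate and glutamate carrier (chromosome 7, 96327694 to 96328195), EGR2, a zinc finger transcription factor (chromosome 10, 62995548 to 62996049), and POMGNT2, a glycosyltransferase of dystroglycan (chromosome 3, 43179356 to 43179857), had −6.17 ± 0.93, −6.15 ± 0.84 and −6.04 ± 0.83 (adjusted p = 0.00126, 0.00114 and 0.00114). The fitted values of SLC25A13 and EGR2 moved to −7.91 and −7.73 without replicate 1 of the AZD5153 group, and that of MIR146A to −7.40 without replicate 2. All 12 regions named for this comparison were called in each fit that left out 1 library.

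Domains called against DMSO in the AZD5153 group were in part those of osimertinib DTP. ANKRD1 had 9 of 9 regions higher (sum 3.32 ± 0.53, SE, edgeR, adjusted p = 3.13e-04), ZRANB1 11 of 16, MIR4668 10 of 24 and LINC01450 9 of 14. FAM50B, an imprinted gene, had 11 of 18 higher (1.62 ± 0.37, adjusted p = 0.00258), and LINC02015 10 of 18 (2.03 ± 0.47, adjusted p = 0.00295). Without replicate 3 of the AZD5153 group, 15 regions of ZRANB1, 12 of MIR4668, 10 of LINC01450, 16 of FAM50B and 16 of LINC02015 were higher. Among the genes with the smallest p, TYRP1 had 2 of 2 regions higher (5.30 ± 0.61), PRR5L, a partner of the mTORC2 kinase complex, 3 of 3 (4.83 ± 0.59) and PAWR, a pro-apoptotic protein, 5 of 5 (3.85 ± 0.50). PAWR had 4.41, 2.66 and 2.89 CPM in DMSO, 23.3, 24.4 and 30.3 in osimertinib DTP cells, and 60.6, 42.8 and 40.8 in the AZD5153 group, with no overlap between any of the groups (0.89 ± 0.45 between the last pair, adjusted p = 0.866). MRPL33 had 1 of 15 regions higher and LINC00656 2 of 16 lower, where osimertinib DTP had 10 and 12, but without replicate 3 of the AZD5153 group they had 9 and 7. Their sums were called against DMSO in the AZD5153 group too (1.16 ± 0.35, adjusted p = 0.0165, and −0.94 ± 0.35, adjusted p = 0.0448), and their changes between the AZD5153 group and osimertinib DTP were −0.53 ± 0.35 and 0.94 ± 0.35 (adjusted p = 0.919 and 0.755).

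P3H2 had 15 of 27 regions lower against DMSO (sum −1.40 ± 0.50, SE, edgeR, adjusted p = 0.0373, called in 3 of 9 fits that left out 1 library and 0.146 without replicate 2 of DMSO), CCBE1 12 of 21, and FLJ42969, LINC02313, LOC339685 and SERP2 11 each of 20, 13, 15 and 12. Without replicate 3 of the AZD5153 group P3H2 had 17 lower. FLJ42969, LINC02313 and LOC339685 then had 12 each, and CCBE1 and SERP2 still had 12 and 11. The smallest p among the falls were those of ASPRV1 (−5.06 ± 0.57), LOC105373352 (−5.06 ± 0.58), TCERG1L-AS1 (−5.47 ± 0.63), TWF1 (−6.32 ± 0.74) and CTNNBL1 (−5.07 ± 0.60). TCERG1L-AS1 had 48.4, 137 and 91.6 CPM over its 5 regions in DMSO, 5.02, 5.65 and 9.89 in osimertinib DTP cells, and up to 3.26 in the AZD5153 group, which again were separate in all 3 groups. Of the gene lists, YAP and TAZ targets had 26 higher and 8 lower of 71 regions, receptor tyrosine kinases 3 and 5 of 25, NF-kappaB and inflammatory genes 6 and 6 of 46, MAPK pathway output 2 and 3 of 21, cell cycle 3 and 0 of 9, lung lineage 1 and 2 of 28, epithelial-mesenchymal transition 2 and 4 of 38 and AP-1 factors 1 and 0 of 16, and 31.4% of all distal regions were called. The share called was 47.9% of the YAP and TAZ regions, 32% of the receptor tyrosine kinase regions, 26.1% of the NF-kappaB and inflammatory regions and 6.25% to 33.3% in the other lists. Without replicate 3 of the AZD5153 group 48.1% of distal regions were called, and the lists had, in the same order, 47 and 12, 5 and 5, 8 and 9, 3 and 3, 4 and 0, 4 and 2, 8 and 8, and 3 and 1. Each gene sum named above as called against DMSO was called without that library too. The FOSL1 sum, lower in osimertinib DTP cells, was not called here (−1.04 ± 0.53, adjusted p = 0.135), and its levels were 9.83, 4.96 and 3.45 CPM.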

How the data were processed

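H3K27ac ChIP-seq was measured in 9 H1975 libraries, labelled biological triplicates, with 1 pooled input. The authors deposited counts of reads per 502 bp region over all regions, a table of fewer regions with a ChIPseeker annotation, and 1 peak list per library with the fold enrichment ratio and −log10 p and q values of MACS2. The submitters' processing notes name BWA 0.7.17, MACS2 2.2.6, featureCounts 2.0.0, ChIPseeker 1.29.1 and hg38. Their settings, and the rule by which the annotated regions were chosen, are not given in the sources used here. Reads were 75 nt and single end, and the highest count of any region, 1148, was just under the 1152 that 1 read per position and strand allows. At 192 distal regions the highest count exceeded 0.5 times that limit, so levels there may be compressed.

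Regions annotated "Distal Intergenic" were taken from the annotated table. The members, gene lists and tests were chosen with earlier results of these data known. All regions were fitted together with edgeR 4.0.16 (quasi-likelihood, TMM, filterByExpr with a minimum count of 10, all 9 libraries, R 4.3.3) and p-values were adjusted by Benjamini-Hochberg over the 157919 regions tested at 0.05. All 11561 distal regions passed the filter. Distal counts were also summed per nearest gene and fitted in the same way over 3590 genes. CPM are counts scaled to 1000000 of the TMM-corrected library total, and SE is that of the log2 fold change. Shares per library were compared by exact permutation tests over libraries. A region lay in a peak where it overlapped a peak by 1 bp. The scripts were tested on simulated data.

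Regions named were, per comparison and direction, the 6 called regions with the largest change among those with at least 50 counts in every library of the higher group and no overlap of the groups (1 per gene), or, where fewer than 3 were called, the 3 with the smallest p. Genes named were the 6 with most called regions, the 5 called genes with the smallest p, the 8 with most regions and up to 4 per gene list with most called regions. ZNF433-AS1 was named after its values were seen.

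Alternatives were no TMM, TMM on distal regions, a loess offset, no filter, the libraries of both groups only, a replicate block, each library left out, DESeq2 1.42.0 and limma 3.58.1 (voom with quality weights). In osimertinib DTP against DMSO, libraries with the same number deviated together (r = 0.334, 0.355 and 0.324 for replicates 1, 2 and 3), although no label says what the number stands for. In the other comparisons they did not all (0.243, 0.026 and −0.240, and −0.018, 0.553 and 0.362). Intervals of count ratios are exact 95% intervals that cover counting error only. Start windows (250 bases before to 50 after a start) came from RefSeq. Values of some genes that the naming rule or the lists hold are not reported here.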

Additional observations from a re-analysis of the deposited data

How the results depend on the processing

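No named region or gene sum that was called changed sign under an alternative. The median log2 fold change of distal regions did, from −0.15 to 0.08 with TMM on distal regions in osimertinib DTP against DMSO and from −0.06 to 0.17 in the AZD5153 group against DMSO, and in some fits with 1 library left out (0.03 without replicate 1 of osimertinib DTP in the first). Without its replicate 3, the AZD5153 group also changed sign in its difference from DMSO in the share of counts. The same held for its difference from osimertinib DTP in the share of regions in a peak. Its difference from osimertinib DTP in the share of counts and from DMSO in the share in a peak kept their sign. In osimertinib DTP against DMSO, the 1094 higher and 1485 lower distal regions became 2159 and 2779 with the libraries of both groups only and 2418 and 3340 with limma, the falls became 918 with TMM on distal regions and 2415 with DESeq2, and leaving out 1 library gave 125 to 2134 rises and 139 to 2963 falls. Between the AZD5153 group and osimertinib DTP cells, the 0 calls became 6 rises and 13 falls with DESeq2 and 341 and 190 with limma, and 0 to 4 rises and 0 to 17 falls with 1 library left out. For the AZD5153 group against DMSO, the 1541 rises and 2092 falls became 3534 and 3485 with limma, and 587 to 2761 and 921 to 2795 with 1 library left out. Gene sums ranged with 1 library left out from 267 to 766 rises and 293 to 964 falls in osimertinib DTP cells, from 352 to 947 and 451 to 798 in the AZD5153 group, and from 0 to 0 rises and 0 to 1 falls between them, where DESeq2 called 1 rise and 1 fall. The cause of these shifts was not tested. Fits with fewer libraries also have fewer degrees of freedom, and calls rose in some of them and dropped in others. With the replicate number as a block, 1096 rises and 1468 falls were called in osimertinib DTP cells and 1417 and 2214 in the AZD5153 group, with 509 and 642 and with 610 and 767 gene sums, and 0 between them. Beside the gene sum of LINC01714 given above, the block changed no call of a named gene in osimertinib DTP against DMSO. Each group had 3 cultures of 1 cell line and a median of 17 to 82 counts per distal region and library, and at single regions edgeR with all libraries called no change smaller than 1.44 on the log2 scale.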
